A study of Mus musculus with 18 samples.

Results

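Small intestinal crypts of KO and WT mice were compared 14 days after the first tamoxifen injection. The comparison uses 6 of the 18 RNA-Seq libraries of the study, 3 per genotype, taken by their titles and column headers. The description of KO replicate 3 also holds the token KO_2, and its title was followed. The study followed inducible loss of Prmt1 in the intestinal epithelium at days 2, 7 and 14, and the question at day 14 is which expression differences last beyond the period of treatment. Both groups were mice of 8 to 12 weeks with LoxP sites in both copies of Prmt1, and every mouse of both groups had received 5 daily injections of 2 mg tamoxifen. In KO mice the villin promoter, active in the intestinal epithelium, also drove CreERT2, a tamoxifen-dependent recombinase. WT mice were littermates without CreERT2, so that the presence of the Cre fusion and the loss of Prmt1 cannot be told apart. Each library came from 1 mouse, the methods give the mice as matched in age and sex, and the labels do not give their sex.

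The count table holds 55335 genes. The 20 sex-differing genes that the study removed were left out, and 21349 genes passed a filter on low counts and were tested. Total counts were 19982869, 16251399 and 15390043 in KO replicates 1, 2 and 3, and 12844642, 25484868 and 21924295 in WT replicates 1, 2 and 3. The 20 most abundant genes held 24.4% to 32.9% of the counts of these 6 libraries and mitochondrial genes 8.43% to 12.7%. Expression is given as CPM, the counts scaled to a common library size, and is not corrected for gene length. A gene is called, or a DEG, when the edgeR adjusted p of KO against WT is under 0.05. Log2 fold changes are KO relative to WT, with their standard error (SE).

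PRMT1 is the main enzyme that places asymmetric dimethyl marks on arginines, and its substrates include histones, RNA-binding proteins and transcription factors. Crypts hold the stem and progenitor cells from which the absorptive enterocytes and the secretory goblet, Paneth, tuft and enteroendocrine cells (EECs) of the gut arise. EECs are scarce hormone-producing cells that form through a series of transcription factors beginning with Neurog3.

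Prmt1 itself (ENSMUSG00000109324.2, chromosome 7, 44975989 to 44986568 of mm10) had 16.1, 14.95 and 15.1 CPM in KO and 25.2, 30.6 and 20.2 CPM in WT crypts. Each KO value was under the lowest WT value, and the difference was larger than the spread between mice. Its log2 fold change was -0.72 (SE 0.14, edgeR adjusted p = 0.00329), and an exact two-sided permutation test of the 6 libraries gave p = 0.1, the smallest p that 3 against 3 allow. The counts cover all exons of the gene and do not show which part of it was transcribed. Crypts were sequenced in bulk, so fewer cells with a transcript and less of it per cell cannot be told apart for Prmt1 or for any gene described here. The 12 epithelial markers were all detected, with a summed level of 7738, 9079 and 8923 CPM in KO and 6850.5, 9963 and 7874 CPM in WT, and none of them was called by edgeR or DESeq2 (1 at an unadjusted p under 0.05 with each). Krt8, a keratin of simple epithelia, was the most abundant of them at 1720.2 CPM in KO and 1694 CPM in WT on average, and Epcam, an adhesion molecule of epithelia, had 834, 942 and 973 CPM in KO and 845, 988 and 960.2 CPM in WT.

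At day 14, 1690 of 21349 genes (7.92%) were called, with 689 higher (3.23%) and 1001 lower (4.69%) in KO. Of these, 486 higher genes (2.28% of the genes tested) and 854 lower genes (4.0%) were called in the same direction at day 7, when 1517 genes (7.11%) were higher and 2173 (10.2%) lower, and no gene was called in opposite directions on the 2 days. These 1340 genes are named lasting here, and the 2 days had different KO and different WT mice. Lasting genes were therefore 854 of the 1001 lower and 486 of the 689 higher genes of day 14. The median log2 fold change over all tested genes was 0.00. Called genes that were higher had a median of 1.10 at day 14 and 0.87 at day 7, and those that were lower had -0.86 and -0.97. Among lasting genes the difference was larger at day 14 than at day 7 for 251 of the 486 higher genes and for 276 of the 854 lower genes. A change of at least 1 in size on the log2 scale was found for 293 lasting higher and 366 lasting lower genes. The KO and WT libraries did not overlap for 5660 tested genes (26.5%), and for 1675 of the 1690 called genes.

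Counts of called genes depended on single libraries. The number of lower genes was 593, 632 and 563 without KO replicate 1, 2 or 3, and that of lasting lower genes 515, 557 and 506. Without WT replicate 2, 456 genes were higher, and the count in both directions was 1091 without KO replicate 1 and 1041 without KO replicate 3.

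**Figure D1:**
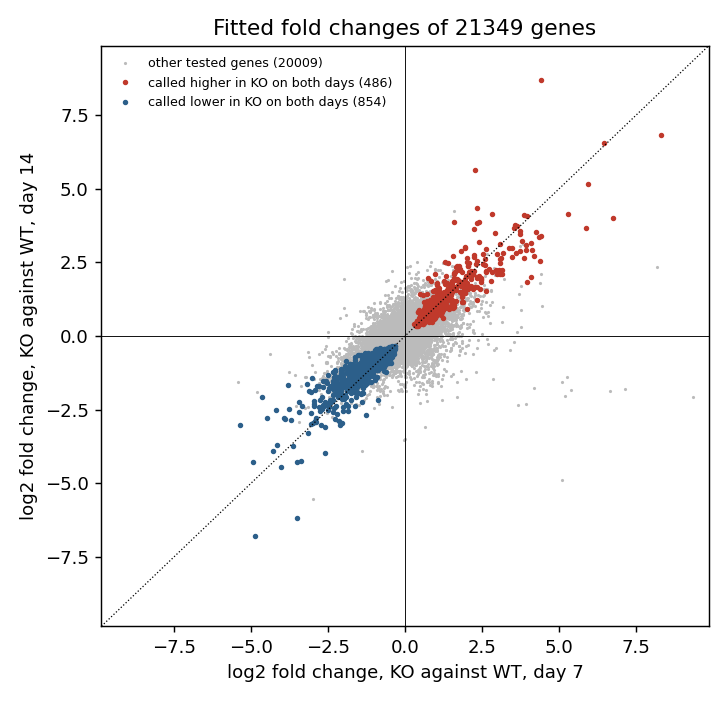
Fitted log2 fold changes of KO against WT crypts at day 7 (horizontal axis) and day 14 (vertical axis) for 21349 genes, 1 point per gene. Red points are the 486 genes called higher and blue points the 854 genes called lower on both days, grey points all others, and the dotted line marks equal values on the 2 days.

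Lowered genes included some that were nearly lost from the crypts. Nr2e3 (ENSMUSG00000032292.8, chromosome 9, 59942771 to 59960659), a nuclear receptor known from photoreceptors, had 0.158, 0.252 and 0.337 CPM in KO and 4.08, 5.33 and 4.82 CPM in WT. Every KO library was below every WT library, and the log2 fold change was -4.26 (SE 0.36, edgeR adjusted p = 1.25e-06), beside -3.50 at day 7. Slc2a13, a transporter that carries myo-inositol with protons, had 0.896, 0.252 and 0.809 CPM in KO and 10.9, 6.99 and 8.16 CPM in WT, and the groups were again apart with a log2 fold change of -3.69 (SE 0.33, edgeR adjusted p = 1.73e-06). Slc2a13 shares no exonic base with Gm15381 and Gm15383, which lie in its span. Xkr5, of the XK family of membrane proteins, fell from 1.89, 2.45 and 1.62 CPM in WT to 0.0527, 0.189 and 0.0675 CPM in KO (log2 fold change -4.23, edgeR adjusted p = 9.04e-06), with a log2 fold change of -4.93 without KO replicate 2. Lyplal1, a lysophospholipase-like protein, had 0.474, 0.252 and 0.202 CPM in KO and 2.795, 3.36 and 3.24 CPM in WT, and no KO library reached the lowest WT library (log2 fold change -3.28, edgeR adjusted p = 1.55e-05).

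The other 11 of the 15 genes with the largest decreases, among called genes with separate groups and a mean of at least 1 CPM, had log2 fold changes of -2.91 to -2.34. They were Ccdc62 (-2.91), AC150312.1 (-2.89), BC051142 (-2.82), Echdc3 (-2.80), the kinesin Kif27 (-2.77), the zinc finger gene Zc3h6 (-2.61), the ethanol-oxidising cytochrome Cyp2e1 (-2.59), Btbd2 (-2.48), the adhesion receptor Adgrg6 (-2.42), Gm30238 (-2.37) and the PHD finger gene Phf7 (-2.34). All 15 were also called lower at day 7, where Echdc3 had a log2 fold change of -4.47 and Xkr5 one of -3.37. AC150312.1 shares 461 of its 1816 exonic bases with 1700012D14Rik, Kif27 332 of 5215 with Gm26555, and Zc3h6 435 and 241 of 5668 with Gm10762 and Gm14027, and a fragment in shared bases was counted for both genes. Adgrg6 had 0.843, 0.757 and 1.35 CPM in KO and 8.91, 1.86 and 5.38 CPM in WT, and its edgeR adjusted p was 0.00288. Fitted on the day 14 libraries alone it missed the threshold (edgeR adjusted p = 0.0532), and over all alternatives its adjusted p ran from 6.02e-06 to 0.0532.

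Lasting lower genes were also ordered by their adjusted p, with ties ordered by p. Btbd2 (ENSMUSG00000003344.14, chromosome 10, 80642617 to 80657071), a BTB domain protein, had 4.64, 3.91 and 4.99 CPM in KO and 20.3, 32.3 and 22.8 CPM in WT. All KO values were less than the lowest WT value, and the log2 fold change was -2.48 (SE 0.17, edgeR adjusted p = 1.17e-07). Hlcs, the enzyme that attaches biotin to carboxylases, had 3.27, 3.72 and 3.64 CPM in KO and 13.9, 12.6 and 13.5 CPM in WT (log2 fold change -1.91, edgeR adjusted p = 8.25e-07). Arsb, a sulfatase of lysosomes, had 2.899, 2.84 and 2.901 CPM in KO and 12.7, 13.1 and 13.1 CPM in WT, with no overlap and nearly identical values within each group (log2 fold change -2.17, edgeR adjusted p = 1.25e-06). Glb1, the lysosomal beta-galactosidase, fell from 41.5, 44.5 and 35.8 CPM in WT to 10.6, 14.3 and 12.7 CPM in KO, a log2 fold change of -1.70 (SE 0.15, edgeR adjusted p = 1.98e-06). Qsox2, an oxidase that forms disulfide bonds, had a log2 fold change of -1.31 (edgeR adjusted p = 5.00e-06) and the noncoding 4833418N02Rik one of -2.19 (edgeR adjusted p = 4.40e-06). With Nr2e3, Slc2a13, Zc3h6 and the repair gene Brca2 these are the 10 genes first in that order, and each of the 10 was lower at day 7 as well, with log2 fold changes of -4.14 to -1.60. At day 2 their log2 fold changes were between -0.62 and 0.13, and none was called. Arsb shares 463 of its 6037 exonic bases with Gm47210 and Qsox2 647 of 4644 with Gm27196, where fragments were counted for both genes.

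**Figure D2:**
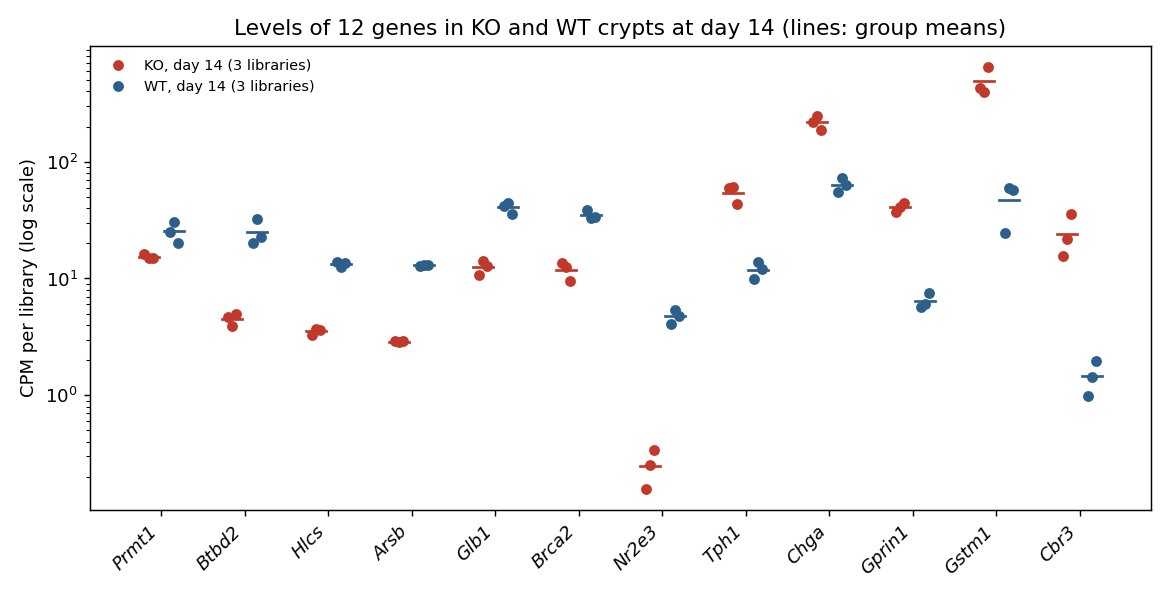
Expression of 12 genes in CPM (log axis) in 3 KO (red) and 3 WT (blue) crypt libraries of day 14, with 1 point per library and a line at the group mean. The KO and WT points do not overlap for any of the 12 genes, of which Prmt1 had the smallest log2 fold change in size at -0.72.

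Raised genes reached larger changes than lowered genes. Car1, a carbonic anhydrase of the large intestine, had 90, 6 and 31 counts in the 3 KO libraries and none in WT. Against a floor of 3 counts over the WT group it was at least 48.2-fold higher, or 24.8-fold without KO replicate 1, which held 90 of the 127 counts. Its KO levels were 4.74, 0.378 and 2.09 CPM, and it was called (edgeR adjusted p = 0.00214). Slc7a3 (ENSMUSG00000031297.14, chromosome X, 101079210 to 101086020), a transporter of cationic amino acids, had 4.27, 2.71 and 3.98 CPM in KO and 0.151, 0.0395 and 0.417 CPM in WT (log2 fold change 4.15, SE 0.48, edgeR adjusted p = 2.33e-05), and the log2 fold change was 3.54 without WT replicate 2 and 5.44 without WT replicate 3. Cbr3, a carbonyl reductase, had 15.7, 21.6 and 35.3 CPM in KO and 0.982, 1.42 and 1.95 CPM in WT. No KO library of Slc7a3 or Cbr3 came near a WT library, and the log2 fold change of Cbr3 was 4.01 (SE 0.47, edgeR adjusted p = 7.83e-05). Gstm1, a glutathione S-transferase, was the most abundant of the strongly raised genes with 429.8, 397 and 647 CPM in KO and 24.4, 60.1 and 57.7 CPM in WT (log2 fold change 3.37, SE 0.44, edgeR adjusted p = 0.000231). Scd1, the desaturase that makes oleate from stearate, had 91.2, 138 and 157 CPM in KO and 14.4, 12.8 and 9.31 CPM in WT, again without overlap (log2 fold change 3.41, edgeR adjusted p = 0.00129).

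The 15 raised genes with the largest changes also included Gm13394, described with the genes called on all 3 days. The others were the neuronal pentraxin Nptx2 (log2 fold change 3.86), the secreted stanniocalcin Stc2 (3.78), the synaptic scaffold gene Rims4 (3.55), the lipolysis inhibitor G0s2 (3.54), the pseudogenes Gm3126 (3.08) and 1700007E05Rik (3.02), the keratin Krt12 (3.00), the uroplakin Upk1a (2.99) and the antisense gene A830036E02Rik (2.98). The edgeR adjusted p was at most 0.00604 for these 9 genes, and Rims4 had 2.32, 0.568 and 3.71 CPM in KO and 0.151, 0.237 and 0.139 CPM in WT. Single WT libraries moved the log2 fold change of Nptx2 to 4.51 (without WT replicate 2) and that of Stc2 to 4.76 (without WT replicate 1) or 3.18 (without WT replicate 2). All 15 were called higher at day 7 as well. Krt12 and A830036E02Rik lie on opposite strands of chromosome 11 and share 1007 exonic bases, 54.4% of those of Krt12 and 16.7% of those of A830036E02Rik, and because strand was not used, reads there cannot be told apart.

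Among lasting higher genes the 10 with the smallest adjusted p included 5 members of the EEC lists, namely Tph1, Stxbp5l, Chga, Ptprn and Scn3a. The lists were chosen with earlier results of these data known, so this count is a description and no independent support. Gprin1, a protein of nerve cell outgrowth, had 36.8, 41.1 and 44.5 CPM in KO and 5.67, 6.08 and 7.46 CPM in WT. KO values of Gprin1 were all far above WT, for a log2 fold change of 2.66 (SE 0.23, edgeR adjusted p = 1.73e-06), beside 3.10 at day 7. Gm8251 had 26.9, 20.4 and 21.5 CPM in KO and 5.82, 2.53 and 3.24 CPM in WT and a log2 fold change of 2.62 (edgeR adjusted p = 5.00e-06).

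Prmt1 and 4 raised genes were called on days 2, 7 and 14. Gm13394, a processed pseudogene, had 21.4, 30.9 and 28.9 CPM in KO and 0.227, 0.197 and 0.278 CPM in WT, and its log2 fold changes were 6.82 at day 14, 8.32 at day 7 and 7.14 at day 2, with an edgeR adjusted p of 1.08e-10 at day 14. Esr1, the estrogen receptor whose human counterpart supplies part of CreERT2, had 2.74, 3.78 and 3.103 CPM in KO and 0.6799, 0.474 and 0.417 CPM in WT. Each KO library was above each WT library, with log2 fold changes of 2.65 (SE 0.30, edgeR adjusted p = 2.11e-05), 3.85 and 4.35 at days 14, 7 and 2, and how many of its reads came from the fusion was not tested. Gm44215, an unconfirmed transcript on chromosome 6, had 1.53, 1.199 and 1.75 CPM in KO and 0.302, 0.474 and 0.556 CPM in WT (log2 fold change 1.69, edgeR adjusted p = 0.0106). Gm45063, a pseudogene, had 5, 10 and 12 counts in the KO libraries and 0 in each WT library, which makes it at least 11.4-fold higher with a floor of 3 counts over the WT group (edgeR adjusted p = 0.00432).

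EEC genes were described in 4 lists, whose members were chosen with earlier results of these data known. Of the 21 transcription factors, 12 were higher and none lower (57.1% called, against 7.92% of all genes), and 6 of the 12 were lasting. Neurog3 (ENSMUSG00000044312.4), which starts the EEC programme, had 8.12, 8.07 and 6.68 CPM in KO and 3.93, 4.07 and 2.22 CPM in WT. The groups did not overlap, and its log2 fold change was 1.17 (SE 0.23, edgeR adjusted p = 0.002796). Neurod1, an early target in that programme, had 9.22, 7.13 and 6.21 CPM in KO and 3.02, 3.16 and 3.06 CPM in WT (log2 fold change 1.29, edgeR adjusted p = 0.00069). Other raised factors were Fev (1.91), which marks serotonin cells, Pax4 (1.85), Lmx1a (1.42), Pax6 (1.41), Insm1 (1.36), Glis3 (1.25), Myt1 (1.06) and Rfx6 (0.92), with edgeR adjusted p from 0.0002 to 0.00573. Hmgn3 and St18 were called at an edgeR adjusted p of 0.0248 and 0.0357, and the call was lost for Hmgn3 without KO replicate 1 (edgeR adjusted p = 0.139), WT replicate 2 (0.12) or WT replicate 3 (0.0548), and with only the groups compared in the fit (0.0677), and for St18 without KO replicate 1 (edgeR adjusted p = 0.087), KO replicate 3 (0.121), WT replicate 2 (0.136) or WT replicate 3 (0.0913), and with the replicate block (0.0527). Isl1 (0.70, edgeR adjusted p = 0.112) and Nkx2-2 (0.69, edgeR adjusted p = 0.114) were not called although their KO and WT libraries did not overlap. The list had a median log2 fold change of 0.92 (0.89 to 1.12), the bracket giving the range over the alternative settings, single libraries left out included, here and for the lists that follow.

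Hormone genes rose in part. Of 16 tested hormone and serotonin genes, 10 were higher and 1 lower (68.8% called, against 7.92% of all genes). Another 4 listed genes (Gal, Insl5, Penk and Gast) were too low to test. Summed over the list, levels were 490, 523 and 481 CPM in KO and 219, 302 and 289.7 CPM in WT, and the median log2 fold change was 1.01 (0.90 to 1.16). Tph1, the rate-limiting enzyme of serotonin synthesis outside the brain, had 59.4, 60.6 and 43.04 CPM in KO and 9.82, 13.9 and 12.002 CPM in WT (log2 fold change 2.18, SE 0.19, edgeR adjusted p = 1.25e-06). No KO library of Tph1 came close to WT. Gip, the incretin of K cells, had 97.2, 87.9 and 85.9 CPM in KO and 29.8, 40.4 and 42.96 CPM in WT, and Cck, which stimulates the gallbladder and pancreas, had 30.3, 27.1 and 31.03 CPM in KO and 9.29, 14.4 and 11.2 CPM in WT. Neither overlapped between the groups and both were called, with log2 fold changes of 1.26 (edgeR adjusted p = 0.000367) and 1.33 (edgeR adjusted p = 0.000973). Pyy, of the distal gut, had 8.43, 7.25 and 9.85 CPM in KO and 3.25, 1.58 and 1.85 CPM in WT (log2 fold change 1.98, edgeR adjusted p = 0.00383), and Gcg, the precursor of glucagon-like peptides, was also called higher. Vgf (2.50), Ucn3 (1.53) and Tac1 (1.03) were higher too, all of them lasting. Ghrl, which encodes ghrelin, went the other way with 5.27, 7.38 and 5.396 CPM in KO and 9.74, 12.1 and 11.7 CPM in WT, no overlap and a log2 fold change of -0.90 (SE 0.17, edgeR adjusted p = 0.00246), and it was also lower at day 7 (-0.67). Ghrl shares 169 of its 1079 exonic bases with Gm44033, where fragments were counted for both. Sst, the hormone of D cells, had overlapping levels of 10.96, 20.9 and 14.6 CPM in KO and 8.84, 13.7 and 15.8 CPM in WT and was not called (edgeR adjusted p = 0.6498).

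Secretory granule and exocytosis genes were the list with the largest share called, 21 of 28 tested members higher and none lower, 15 of them lasting. Their summed level was 1006, 1005 and 878 CPM in KO and 388, 431 and 379 CPM in WT, and the median log2 fold change was 0.98 (0.90 to 1.07). Chgb, a granin packed in the granules, had 446, 461 and 386 CPM in KO and 130.4, 168 and 136 CPM in WT, and Chga, its better known relative, 217, 248 and 189 CPM in KO and 54.5, 72.6 and 63.2 CPM in WT. For both, KO and WT were far apart, with log2 fold changes of 1.57 (SE 0.20, edgeR adjusted p = 6.14e-05) and 1.78 (SE 0.18, edgeR adjusted p = 6.32e-06). Ptprn, a granule membrane protein, reached 2.37 and the syntaxin-binding Stxbp5l 2.12, followed by the axonal motor Kif1a (1.89), the priming factor Cadps (1.40), Rimbp2 (1.22), Scg2 (1.10), Rab3c (1.01), the processing enzymes Cpe (0.99) and Pcsk1 (0.83), at edgeR adjusted p of up to 0.00615. Ptprn shares 189 of its 4249 exonic bases with Gm28294. Among 21 tested sensors and ion channels, 11 were higher (52.4%, against 3.23% of all genes) and none lower, 5 of them lasting, with a median of 0.98 (0.78 to 1.10). The sodium channel Scn3a had 18.2, 16.3 and 15.1 CPM in KO and 6.27, 6.36 and 5.93 CPM in WT (log2 fold change 1.42, edgeR adjusted p = 1.48e-05), and the cation channel Trpm2 (1.25) and the calcium channel subunit Cacna2d1 (1.00) were also higher at edgeR adjusted p of 0.00385 and 0.00517.

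**Figure D3:**
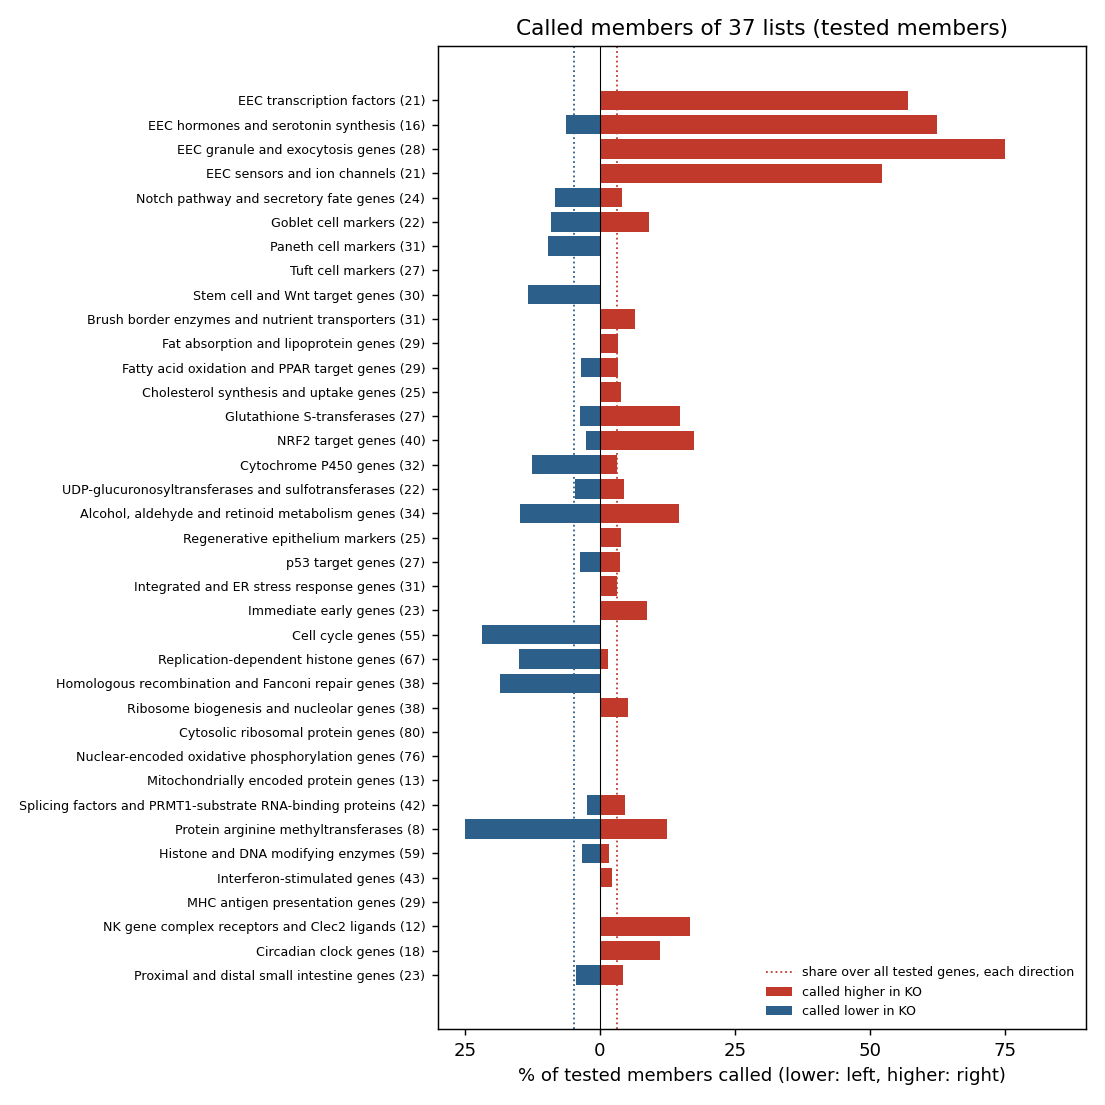
Share of tested members called higher (red, to the right) and lower (blue, to the left) in KO at day 14 for 37 gene lists, in percent, with the number of tested members in brackets. Dotted lines mark the shares over all tested genes, 3.23% higher and 4.69% lower, and the 4 EEC lists have the longest red bars.

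Among other secretory fates, edgeR called 12.5% of Notch, 18.2% of goblet and 0% of tuft genes, against 7.92% of all genes. Among 24 tested Notch pathway and fate genes 1 was higher and 2 lower, with a median of -0.02 (-0.03 to 0.05), which changed sign between settings. The goblet cell list had 2 of 22 tested genes higher and 2 lower (8 called with DESeq2), with a median of 0.15 (0.10 to 0.27). Muc2, the main gel-forming mucin, had overlapping levels of 3324, 3216 and 3298 CPM in KO and 3513, 2614 and 2864 CPM in WT and was not called (edgeR adjusted p = 0.765). Guca2a, the precursor of guanylin, had 34.9, 68.3 and 39.1 CPM in KO and 123, 121 and 98.3 CPM in WT, fully apart, with a log2 fold change of -1.27 (SE 0.30, edgeR adjusted p = 0.0131). The Guca2a call was lost without KO replicate 1 (edgeR adjusted p = 0.0641) or KO replicate 3 (0.0633). None of 27 tested tuft cell genes passed the edgeR or the DESeq2 test at day 14 (1 at an unadjusted p under 0.05 with each), against 4 lower at day 7, and their median of -0.01 (-0.11 to 0.12) also changed sign.

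Calls among Paneth cell genes depended on the tool. Of 31 tested members 3 were lower and none higher at day 14 by edgeR, a share of 9.7% against 7.92% of all genes. DESeq2 called 9. At day 7, 24 were lower by edgeR, when 10.2% of all genes were lower. KO and WT did not overlap for 16 lower members, and among all 21349 tested genes there were 3005 such lower genes (14.1%). Summed levels were 10854, 10765 and 8736 CPM in KO and 30271, 15888 and 14452 CPM in WT. WT replicate 1 was far above the other WT libraries, and without it the median log2 fold change of the list was -0.54, against -0.92 (-1.15 to -0.54) with it. Lyz1, the lysozyme of Paneth cell granules, had 3640.5, 3448 and 3106 CPM in KO and 9747, 5112 and 4407 CPM in WT. The groups did not overlap and the gene was not called at day 14 (log2 fold change -0.92, edgeR adjusted p = 0.1503). Mptx1, a pentraxin, was called with 0.158, 0.378 and 0.135 CPM in KO and 1.28, 1.46 and 0.788 CPM in WT (log2 fold change -2.37, SE 0.45, edgeR adjusted p = 0.00218). Ang4, an antimicrobial ribonuclease, had 134, 141 and 91.4 CPM in KO and 577, 312 and 241 CPM in WT and a log2 fold change of -1.63 (edgeR adjusted p = 0.0271), a call that was lost without KO replicate 1 (edgeR adjusted p = 0.0726), KO replicate 2 (0.0623), KO replicate 3 (0.114) or WT replicate 1 (0.125), and with no filter on low counts (0.0778).

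Stem cell and Wnt target genes had a median of -0.22 (-0.30 to -0.19). At day 14, 4 of 30 were lower (13.3%, against 4.69% of all genes), all 4 lasting, and none higher (7 called with DESeq2). At day 7, 14 were lower and 1 higher, when 10.2% of all genes were lower and 7.11% higher. Prom1, a membrane protein of stem and progenitor cells, had 103, 84.9 and 104 CPM in KO and 193, 134 and 169.7 CPM in WT. KO lay below WT throughout, and the log2 fold change was -0.77 (SE 0.15, edgeR adjusted p = 0.00305). Tert, the catalytic subunit of telomerase, had 4.796, 4.67 and 3.78 CPM in KO and 9.22, 8.77 and 9.82 CPM in WT and a log2 fold change of -1.07 (SE 0.16, edgeR adjusted p = 0.000365), close to its day 7 value of -1.05.

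Absorptive and lipid lists had 3.4% to 6.9% of tested members called by edgeR, against 7.92% of all genes (3.23% higher and 4.69% lower). Brush border enzymes and transporters had 2 of 31 members higher, none lower and a median of 0.24 (0.07 to 0.39), and without WT replicate 1 that median was 0.07. Fat absorption genes had a median of 0.62 (0.29 to 0.74), which fell to 0.29 without WT replicate 1, and 1 of 29 was higher by edgeR, against 7 called by DESeq2. The edgeR call was Acsl3, a ligase that activates fatty acids, with 51.9, 69.3 and 70.8 CPM in KO and 35.2, 38.1 and 36.01 CPM in WT. The groups were apart, and its log2 fold change was 0.81 (SE 0.16, edgeR adjusted p = 0.00252). Summed levels of the fat absorption list were 12673, 25064 and 18945 CPM in KO and 6709, 13759 and 15892 CPM in WT, with WT replicate 1 lowest. Fatty acid oxidation and PPAR target genes (1 of 29 tested higher, 1 lower, median 0.06 (-0.05 to 0.22), changing sign) included a pair of carnitine palmitoyltransferases that went opposite ways. Cpt1b, of the outer mitochondrial membrane, had 28.1, 22.8 and 32.04 CPM in KO and 12.1, 9.48 and 15.4 CPM in WT and rose by a log2 fold change of 1.17 (SE 0.23, edgeR adjusted p = 0.00362). Cpt2, of the inner membrane, had 19.6, 23.7 and 26.4 CPM in KO and 43.8, 75.3 and 62.2 CPM in WT, without overlap, and fell with a log2 fold change of -1.39 (SE 0.19, edgeR adjusted p = 0.000151). Cpt1b shares 2744 of its 3372 exonic bases (81.4%) with Gm44502, and the share of each in its counts cannot be told apart. Cholesterol synthesis and uptake genes had 1 of 25 members higher and a median of 0.20 (0.05 to 0.29), which was 0.05 without WT replicate 3.

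Glutathione S-transferases and NRF2 targets held several of the strongest increases. NRF2 is the transcription factor that turns on antioxidant and conjugating enzymes. Of 40 tested NRF2 targets 7 were higher and 1 lower at day 14, and the 7 were all lasting. At day 7, 27 of them were higher and none lower. The median of the list was 0.36 (0.31 to 0.46) at day 14 and 1.01 at day 7. Among all tested genes 3.23% were higher and 4.69% lower at day 14, against 7.11% and 10.2% at day 7. Of 27 tested transferases 4 were higher and 1 lower (10 called with DESeq2), with a median of 0.45 (0.24 to 0.57), which was 0.24 without WT replicate 1. Akr1b8, an aldo-keto reductase, had 39.6, 27.1 and 59.5 CPM in KO and 4.31, 5.05 and 7.09 CPM in WT. KO and WT were far apart, and the log2 fold change was 2.92 (SE 0.37, edgeR adjusted p = 0.000184). Gsta3 had 22.1, 20.2 and 27.9 CPM in KO and 3.32, 5.25 and 6.16 CPM in WT and a log2 fold change of 2.23 (SE 0.25, edgeR adjusted p = 1.89e-05), and Gstm3 had 387, 368 and 519 CPM in KO and 38.8, 133 and 109.5 CPM in WT and one of 2.18 (edgeR adjusted p = 0.00242). Gsta2 (2.10, edgeR adjusted p = 0.00259) was higher as well. Transferases of 1 class are alike in sequence and reads mapping to several genes were not counted, so the split between Gsta2 and Gsta3, or Gstm1 and Gstm3, is uncertain. Abcc2, which exports conjugates, had 568, 747 and 512 CPM in KO and 150.4, 282 and 322 CPM in WT (log2 fold change 1.28, edgeR adjusted p = 0.00298). Me1, a source of NADPH, had 22.9, 33.5 and 38.05 CPM in KO and 8.61, 15.8 and 17.1 CPM in WT and a log2 fold change of 1.17 (edgeR adjusted p = 0.0148), and its call was lost without KO replicate 3 (edgeR adjusted p = 0.0623), and with no filter on low counts (0.0509). Nqo1, a quinone reductase often read as an NRF2 target, had overlapping levels of 34.3, 35.2 and 40.9 CPM in KO and 21.8, 37.4 and 26.4 CPM in WT and was not called at day 14 (edgeR adjusted p = 0.5297), after a log2 fold change of 1.49 at day 7.

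Promoter sequences of RefSeq on GRCm38.p6, 250 bases before to 50 after each gene start, were searched on both strands for TGACNNNGC, the core of the antioxidant response element. It was found in 13 of 44 promoters of the NRF2 list (29.5%), in 4 of 36 of the transferase list (11.1%) and in 4071 of 32851 promoters in all (12.4%). Of 15 genes of the 2 lists with the core, 12 were not called. The called ones were Abcc2 (chr19:43782200-43782229, plus strand), Gsta3 (chr1:21240454-21240483, plus strand) and Me1 (chr9:86695901-86695930, minus strand). These windows of 30 bases are shown as those of the called genes, with the core in capitals, and a match is no evidence of binding.
Abcc2: ctcactgggaTGACATAGCattcatctagc
Gsta3: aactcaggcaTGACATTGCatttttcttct
Me1: gatgccgccgTGACTCAGCgcttctcgcgg

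Cell cycle genes were lower in part. Of 55 members 12 were lower (21.8%) and none higher at day 14, against 4.69% lower and 3.23% higher of all genes. Of the 12, 5 were lasting, and the list had a median of -0.32 (-0.41 to -0.23). Kif11, a motor of the mitotic spindle, had 62.6, 58.6 and 58.3 CPM in KO and 102, 107 and 90.04 CPM in WT. The groups did not overlap, and the log2 fold change was -0.74 (SE 0.14, edgeR adjusted p = 0.00216). E2f7, a repressor of the E2F family, had 6.69, 4.67 and 7.96 CPM in KO and 15.8, 14.1 and 12.6 CPM in WT (log2 fold change -1.13, edgeR adjusted p = 0.00198), and Lig1, the ligase that joins Okazaki fragments, had a log2 fold change of -0.60 (edgeR adjusted p = 0.00476). Mki67, the proliferation marker, had 527, 399.6 and 461 CPM in KO and 652, 580.2 and 512 CPM in WT, with overlap, and was not called (edgeR adjusted p = 0.256). Replication-dependent histone genes had the lowest median of the 37 lists after the Paneth list, at -0.75 (-0.87 to -0.46), the value nearest 0 being without WT replicate 2. Of 67 tested histone genes 10 were lower and 1 higher by edgeR, and DESeq2 called 22. KO and WT did not overlap for 47 lower histone genes, against 14.1% of all tested genes. Hist2h2be had 1.05, 1.58 and 1.48 CPM in KO and 6.65, 7.34 and 5.098 CPM in WT and a log2 fold change of -2.22 (SE 0.24, edgeR adjusted p = 1.28e-05), and it kept its call in every setting. Many histone genes are nearly identical, so their counts are uncertain.

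Genes of homologous recombination and Fanconi repair included 7 of 38 that were lower (18.4%, against 4.69% of all genes) and none that was higher. All 7 were lasting, where 4.0% of all genes were lasting and lower, and the median was -0.27 (-0.32 to -0.20). Brca2, a repair protein of double-strand breaks, had 13.6, 12.5 and 9.58 CPM in KO and 38.2, 33.1 and 33.4 CPM in WT. All KO libraries were far below WT, and the log2 fold change was -1.55 (SE 0.15, edgeR adjusted p = 2.83e-06). Fancd2, a central protein of crosslink repair, had 11.2, 9.59 and 10.5 CPM in KO and 19.04, 20.2 and 18.4 CPM in WT and a log2 fold change of -0.88 (SE 0.16, edgeR adjusted p = 0.00197). Rad51d (-0.80, edgeR adjusted p = 0.000457) and Fance (-0.71, edgeR adjusted p = 0.00594) were lower too.

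Of 32 tested cytochrome P450 genes 1 was higher and 4 lower, against 3.23% and 4.69% of all genes, with a median of -0.07 (-0.23 to 0.24), which changed sign. Cyp2j9 had 0.949, 1.64 and 0.742 CPM in KO and 3.702, 4.699 and 5.65 CPM in WT and a log2 fold change of -2.08 (SE 0.27, edgeR adjusted p = 8.75e-05), without overlap, and Cyp4f40 (-0.69, edgeR adjusted p = 0.00409) and Cyp2u1 (-1.17, edgeR adjusted p = 0.000292) were also lower. Of 34 tested genes of alcohol, aldehyde and retinoid metabolism 5 were higher and 5 lower (median 0.05 (-0.02 to 0.25), changing sign). Lrat, which esterifies retinol for storage, had 5.903, 7.002 and 4.38 CPM in KO and 14.7, 21.5 and 18.4 CPM in WT. It fell in every KO library relative to every WT library, with a log2 fold change of -1.66 (SE 0.20, edgeR adjusted p = 4.20e-05). Cyp26b1, which breaks down retinoic acid, was called higher (edgeR adjusted p = 0.00155) at very low levels of 0.738, 0.568 and 0.405 CPM in KO and 0.0755, 0 and 0.0463 CPM in WT. Ttr, a carrier of retinol-binding protein, had a log2 fold change of 1.00 (edgeR adjusted p = 0.00718). Glucuronosyltransferases and sulfotransferases had 1 of 22 tested members higher and 1 lower, near the shares over all genes, with a median of 0.18 (-0.05 to 0.36), which changed sign.

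Stress and immune lists held more calls at day 7 than at day 14 by edgeR. Over all genes 3.23% were higher and 4.69% lower at day 14, and 7.11% and 10.2% at day 7. Regenerative epithelium markers had 1 of 25 tested genes higher at day 14 by edgeR (5 called with DESeq2) and 11 at day 7, with a median of 0.34 (0.22 to 0.54). The p53 target list had 1 higher and 1 lower of 27 at day 14, against 12 and 1 at day 7 (median 0.08 (-0.01 to 0.13), changing sign). Plk3, a kinase of the stress response, had 12.97, 16.97 and 12.5 CPM in KO and 2.72, 6.16 and 5.70 CPM in WT, with no overlap and a log2 fold change of 1.51 (SE 0.27, edgeR adjusted p = 0.00157), while Cdkn1a, the inhibitor of the cell cycle that p53 induces, had 39.7, 60.5 and 48.8 CPM in KO and 24.9, 45.3 and 41.7 CPM in WT and was not called (edgeR adjusted p = 0.423). Integrated and ER stress genes had 1 of 31 tested genes higher, Stc2 (3 called with DESeq2), against 11 at day 7 (median 0.18 (0.11 to 0.25)). Immediate early genes had 2 of 23 tested members higher at day 14 and 7 at day 7. Their median at day 14 was 0.35 (0.30 to 0.57), or 0.57 without WT replicate 3. Interferon-stimulated genes had 1 of 43 higher at day 14 (2 called with DESeq2) and 21 at day 7 (median 0.17 (0.04 to 0.35)), and MHC genes 0 of 29 by edgeR or DESeq2 at day 14 (4 at an unadjusted p under 0.05 with each) and 8 higher at day 7 (median 0.10 (0.08 to 0.16)). The interferon element core GAAANNGAA, on both strands, was in 24 of 36 promoters of the interferon list (66.7%), 5 of 25 of the MHC list (20%) and 2812 of 32851 in all (8.56%). Whether these lists differed between the days was not tested as lists.

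Among the growth and energy lists only that of ribosome biogenesis held calls by edgeR, where 7.92% of all genes were called. Among 80 tested ribosomal protein genes, 76 nuclear oxidative phosphorylation genes and 13 genes of the mitochondrial genome none was called by edgeR or DESeq2 at day 14, with medians of -0.13 (-0.21 to 0.06), -0.05 (-0.17 to 0.12) and 0.08 (-0.05 to 0.21), all of which changed sign. At an unadjusted p under 0.05 there were 0, 3 and 0 of them with edgeR and 0, 3 and 1 with DESeq2. Ribosome biogenesis genes had 2 of 38 higher (5.3%, against 3.23% of all genes), with a median of 0.06 (-0.05 to 0.15), changing sign.

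Among protein arginine methyltransferases, the family of the deleted gene, 8 of 9 were tested, with 1 higher and 2 lower, Prmt1 itself and Prmt3, and a median of -0.13 (-0.15 to -0.05). Prmt3, which modifies a ribosomal protein, had 19.1, 17.9 and 17.1 CPM in KO and 29.5, 26.2 and 20.3 CPM in WT and Prmt6, which marks histone H3, had 14.7, 14.1 and 12.3 CPM in KO and 8.23, 10.1 and 9.69 CPM in WT. Both had separate groups, with log2 fold changes of -0.49 (edgeR adjusted p = 0.03599) and 0.55 (edgeR adjusted p = 0.0256). The call was lost for Prmt3 without any 1 of the 5 libraries other than WT replicate 3 (edgeR adjusted p 0.0798 to 0.19), and with only the groups compared in the fit (0.0883), and for Prmt6 without KO replicate 1 (edgeR adjusted p = 0.114), KO replicate 2 (0.0809), WT replicate 1 (0.112) or WT replicate 3 (0.0613), and with no filter on low counts (0.0844) and with only the groups compared in the fit (0.0616). Carm1 (0.04, edgeR adjusted p = 0.884) and Prmt5 (-0.26, edgeR adjusted p = 0.358) were not called. Splicing factors and RNA-binding proteins had 2 of 42 higher and 1 lower (median -0.05 (-0.09 to 0.01), changing sign), the lower gene being the cold-inducible Cirbp with 10.2, 8.33 and 9.58 CPM in KO and 19.8, 17.6 and 16.3 CPM in WT, no overlap and a log2 fold change of -0.93 (SE 0.15, edgeR adjusted p = 0.000464). Of 59 histone and DNA modifying enzymes 1 was higher and 2 lower, and DESeq2 called 5 (median -0.01 (-0.02 to 0.03), changing sign). By edgeR 37.5% of the methyltransferases, 7.1% of the splicing and 5.1% of the chromatin enzyme list were called. Over all genes 7.92% were called, so the latter 2 lists were not above that share. Kmt5c, which trimethylates histone H4, had 21.2, 20.1 and 23.3 CPM in KO and 40.5, 39.96 and 43.2 CPM in WT (log2 fold change -0.94, SE 0.16, edgeR adjusted p = 0.000718).

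Smaller lists gave single genes, and 16.7% of the NK, 11.1% of the circadian and 8.7% of the small intestine list were called, against 7.92% of all genes. NK gene complex receptors and their ligands, of which 12 of 38 were tested, had 2 higher members and a median of 0.53 (0.29 to 0.92). Klri1, an inhibitory receptor of lymphocytes, had 1.11, 1.39 and 1.42 CPM in KO and 0.0755, 0.07897 and 0.139 CPM in WT (log2 fold change 3.63, SE 0.51, edgeR adjusted p = 0.000175). On chromosome 6 Klri1 (129697218 to 129717132) lies between the raised Gm44215 (128691073 to 128693783) and Gm45063 (132462502 to 132462973). Whether their positions bear on these differences was not tested. Circadian genes had 2 of 18 tested members higher (4 called with DESeq2) and a median of 0.27 (0.12 to 0.36), which was 0.12 without KO replicate 2. Among 23 genes that differ along the small intestine 1 was higher, Car1, and 1 lower, the latter not in every fit with 1 library left out. The median of that list was -0.02 (-0.16 to 0.17) and changed sign.

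Markers of other cell types were looked at for cells outside the epithelium. Summed levels cover all listed markers, and calls and medians the tested ones. Of 19 markers of T cells and intraepithelial lymphocytes none was called by edgeR (5 at an unadjusted p under 0.05) and 3 were called by DESeq2, 18 had a positive log2 fold change, and summed levels were 207, 306 and 189.8 CPM in KO and 162, 132 and 189 CPM in WT. Their median was 0.59 (0.35 to 0.81), or 0.35 without KO replicate 2, and Gzma was the most abundant gene (73.8 CPM in KO and 40.9 CPM in WT on average). B and plasma cell markers (0 of 10 called by edgeR or DESeq2, 1 and 2 at an unadjusted p under 0.05) summed to 41.7, 20.9 and 77.2 CPM in KO and 112, 12.6 and 54.5 CPM in WT, with Igha most abundant and a median of -0.79 (-1.29 to 0.19), positive only without WT replicate 1. Myeloid markers (0 of 10 called by edgeR or DESeq2, 1 at an unadjusted p under 0.05 with each, Lyz2 most abundant) summed to 38.9, 32.6 and 76.9 CPM in KO and 74.5, 38.6 and 83.7 CPM in WT, with a median of -0.03 (-0.39 to 0.45). Stromal, muscle and endothelial markers (0 of 14 called by edgeR or DESeq2, 2 at an unadjusted p under 0.05 with each, Col3a1 most abundant) summed to 86.02, 69.8 and 192 CPM in KO and 92.4, 56.98 and 219 CPM in WT, highest in KO replicate 3 and WT replicate 3, with a median of 0.01 (-0.38 to 0.76). Red blood cell markers (0 of 5 called by edgeR or DESeq2, 0 at an unadjusted p under 0.05, Hbb-bs most abundant) summed to 10.8, 16.9 and 114 CPM in KO and 18.7, 14.4 and 41.5 CPM in WT, highest in KO replicate 3, with a median of 0.95 (-1.15 to 1.74). Of enteric neuron and glia markers 4 of 11 were tested and 1 was lower, a call lost in most fits with 1 library left out. All 11 summed to 3.32, 2.33 and 2.97 CPM in KO and 2.79, 1.74 and 3.105 CPM in WT, and the median of the tested ones was 0.79 (-0.59 to 0.96). Of 10 pancreas markers 4 were tested, with 0 called by edgeR or DESeq2, 0 at an unadjusted p under 0.05 and Cela1 most abundant. All 10 summed to 3.58, 6.37 and 12.9 CPM in KO and 8.16, 4.22 and 4.22 CPM in WT. Prss1 was at 0, and the median of the tested ones was 0.78 (-0.42 to 1.6). The last 6 of these medians changed sign between settings, and the part of these cells in the gene results was not tested.

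Position and gene class were described for the called genes. Of 14367 tested protein-coding genes 523 were higher (3.64%) and 841 lower (5.85%), against 3.23% and 4.69% of all tested genes. Of 104 unprocessed pseudogenes 11 were higher (10.6%) and 1 lower, the largest share higher among 15 gene classes. Protein-coding genes had a median span of 23.4 kb over all tested genes, 22.2 kb over higher genes and 24.1 kb over lower genes. Runs of neighbouring tested genes called the same way included 5 lower genes on chromosome 3 (96209627 to 96223738) with 3 histone genes, Hist2h2be among them, and 4 lower genes on chromosome 4 (44092632 to 44364675) with the kinase gene Melk. A further 4 lower genes lay on chromosome 9 (45838580 to 45906911) with Bace1, which encodes the beta-secretase, and 4 higher genes on chromosome 8 (4362298 to 4402845), all of them predicted genes. Bace1 shares exonic bases with each of the other 3 genes of its run.

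The KO effect at day 14 was also tested against that at day 7. No gene passed the edgeR test of this difference, with 953 genes at an unadjusted p under 0.05, and DESeq2 called 2, with 902 genes at an unadjusted p under 0.05. The 350 genes whose call was made at day 14 alone of these days (203 higher, 147 lower) are therefore not shown to differ between the days. Their medians were 1.04 at day 14 and 0.42 at day 7 for higher genes, and -0.67 and -0.35 for lower genes. Among the 10 genes with the smallest unadjusted p for the difference, Stxbp5l had log2 fold changes of 2.12 and 0.96 at days 14 and 7, and the steroid enzyme gene Hsd3b2 1.98 and 0.74. Scn3a had 1.42 and 0.47, Cyp2u1 -1.17 and -2.27, and the noncoding Gm830 -2.08 and -4.65. Gsr, the glutathione reductase, had overlapping levels of 231, 159 and 241 CPM in KO and 186, 184 and 158 CPM in WT at day 14 and log2 fold changes of 0.26 and 1.54 at days 14 and 7. Per3, of the circadian clock, had -0.69 and -2.48. Neither Gsr (edgeR adjusted p = 0.553) nor Per3 (0.182) was called at day 14. Igdcc4 had -0.02 and -1.03 and the microRNA gene Gm25732 -0.49 and 1.501, and neither was called at day 14. Hsd3b2 shares 99 of its 3695 exonic bases with Zfp697. Ces2b, a carboxylesterase, had 5.43, 20.9 and 11.9 CPM in KO and 2.12, 3.51 and 4.68 CPM in WT and was called higher at day 14 only (log2 fold change 1.86, edgeR adjusted p = 0.00709), and not when the day 14 libraries were fitted alone (edgeR adjusted p = 0.104).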

How the data were processed

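Total RNA of crypts was depleted of ribosomal RNA and sequenced. Per the labels, the authors aligned reads to mm10 with STAR 2.7.3 and counted fragments per gene with featureCounts 1.6.4, without strand, for every gene a fragment overlaps and without multiply mapped reads. The deposited values are raw counts. The deposited table's header names GENCODE M23 and the study's methods name M26, and HTSeq is also listed. Gene classes come from GENCODE vM21.

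The 20 sex-differing genes the study removed were left out. Counts of all 18 libraries, 3 in each of 6 groups, were filtered (filterByExpr), scaled (TMM) and tested with the robust quasi-likelihood F test of edgeR 4.0.16 in R 4.3.3, with 1 mean per group and Benjamini-Hochberg adjustment over 21349 genes at 0.05. Lasting genes were called the same way at days 14 and 7. The members and lists were chosen with earlier results of these data known. Genes named are Prmt1, the 15 largest changes each way among called genes with separate groups and a mean of at least 1 CPM, the 10 lasting genes with the smallest adjusted p each way (ties ordered by p), genes called on 3 days, the 10 with the smallest p of the difference between days, and list members. Neighbouring genes of a run were named after their values were seen. Where all libraries of a group were at 0, a floor of 3 counts over the group gave the bound. The floor covers counting error only. Exons of the count table gave the bases that genes share. Those shared with genes that were not called are given for Qsox2 alone, and held at most 23.4% of the exonic bases of any other gene whose values are given (Prmt6). The SE is the size of the log2 fold change divided by the square root of F.

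Alternatives were DESeq2 1.42.0 (Wald test and size factors), TMM without the 20 genes with the largest mean count, no filter, a mean count of at least 50, the sex-differing genes kept, only the groups compared, a replicate block and each library left out. Residuals of libraries with the same replicate number correlated at day 14 (r = 0.227, 0.18 and 0.159) and not throughout at day 7 (-0.159, 0.206 and 0.0787), so a block at day 14 only was added after seeing the data, as were the alternatives for the separation of the groups and for the difference between days. The code was tested on simulated data. Tables and figures used Python 3.11.15, pandas 2.3.3, numpy 2.4.6 and matplotlib 3.10.9.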

Additional observations from a re-analysis of the deposited data

How the results depend on the processing

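Leaving out 1 library at a time gave 456 to 547 higher, 563 to 787 lower and 1041 to 1334 called genes in all at day 14, and 355 to 502 lasting higher and 506 to 790 lasting lower genes. These fits hold 1 library less in 1 group. The test of the difference between days 14 and 7 called 2 genes with DESeq2, 2 with no filter on low counts and 0 to 2 with 1 library left out, and the cause was not tested. All other alternatives gave counts within 1.5 times those reported. DESeq2 called 2084 genes and shared 1670 of the 1690 called by edgeR (98.8%), and a model of only the groups compared called 1252 and shared 1156 (68.4%). DESeq2 called over 1.5 times as many members as edgeR in 12 lists, namely goblet (8 against 4), Paneth (9 against 3), stem cell (7 against 4), fat absorption (7 against 1), transferase (10 against 5), regenerative (5 against 1), integrated stress (3 against 1), histone (22 against 11), chromatin enzyme (5 against 3), interferon (2 against 1), circadian (4 against 2) and T cell (3 against 0) lists. With the replicate block at day 14 only, chosen after seeing the data, 788 genes were higher and 1014 lower. Prmt1 was called in every setting run, with a log2 fold change of -0.85 to -0.55 and an adjusted p of 0.000386 to 0.0282. The median over all genes was 0.00 to 0.02 in all settings. With 3 mice per group, lists of called genes depend on each library, and genes at a few counts are poorly measured.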
